A study of Homo sapiens with 8 samples.

Results

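The genes described here are 34 genes of the tricarboxylic acid (TCA) cycle and of pyruvate metabolism. They were chosen as a list of gene symbols, all 34 were found among the 15982 gene symbols of the count table, and all 34 passed the filter on low counts, which left 15905 genes. They were measured by total RNA sequencing in 143BTK- cells, an established human osteosarcoma line that lacks thymidine kinase, and each group was a set of cultures of that 1 line. All cultures grew without glucose, in 10 mM galactose with 5% dialysed serum, uridine and a glutamine dipeptide, and each was transfected with 80 pmol of a synthetic double-stranded microRNA mimic, a second time after 48 h, and harvested after 120 h. In the miR-101 group (4 libraries) the mimic was hsa-miR-101-3p, and in the control group (4 libraries) it was the supplier's Negative Control #1 mimic. A mimic adds to the cell's own supply of its microRNA; the amount taken up is not given in the labels, and no untransfected culture was analysed here. The labels describe 4 independent transfection experiments. The series' title speaks of mitochondrial metabolism and complex II, and the comparison below asks how the mRNAs of the pathway that feeds complex II differed between the 2 groups.

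The TCA cycle joins acetyl-CoA to oxaloacetate and oxidises the citrate formed back to oxaloacetate, handing electrons to the respiratory chain through NADH and through complex II. Pyruvate enters mitochondria through a carrier made of MPC1 and MPC2 and is then either oxidised by the pyruvate dehydrogenase complex or carboxylated by PC. Kinases (PDK) switch the pyruvate dehydrogenase complex off and phosphatases (PDP) switch it on. Cells on galactose make pyruvate slowly and rely on respiration for ATP, so much of their cycle carbon can come from glutamine, which enters as 2-oxoglutarate.

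A microRNA guides Argonaute proteins to mRNAs that pair with its seed (bases 2 to 8), most often in the 3' UTR, and such mRNAs tend to be degraded or translated less. The guide is shown with some of its matches in genes that were called or that are described in detail below, and the list is not complete. The mature guide is from RefSeq (GRCh38.p14, chr9:4850345-4850365, plus strand), with the seed in capitals:
hsa-miR-101-3p: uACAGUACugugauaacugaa
Full seed matches read GTACTGT (a 7mer-m8), or GTACTGTA (an 8mer) where an A lies opposite base 1, and a shorter 7mer-A1 match reads TACTGTA. Only the mRNA sense strand of each transcript was searched. A 7mer-A1 that lies inside an 8mer was not counted again. Sequences and coordinates below are from GENCODE 29 (GRCh38), each line is 30 bases of mRNA sense sequence, and capitals mark the match. Matches in 3' UTRs of 2 genes of the pathway lists and of 2 members, followed for reference by the 8mer among the 2 matches of EZH2, a described target of miR-101:
DHTKD1, 8mer, chr10:12122112-12122119, plus strand: tgggtggatgatcttctaGTACTGTAtttt
GOT2, 7mer-A1, chr16:58707138-58707144, minus strand: ttctctgttacaataaaatTACTGTAgacc
ACLY, 7mer-m8, chr17:41867522-41867528, minus strand: attatatggaagcatctaaGTACTGTcagg
PDK3, 7mer-m8, chrX:24539532-24539538, plus strand: attccagatacagcagatcGTACTGTtgct
EZH2, 8mer, chr7:148807525-148807532, minus strand: aaattctgaatttgcaaaGTACTGTAagaa
Matches inside the coding sequence were found in 5 members, each within 1 coding exon, and 4 of them are shown:
OGDH, 7mer-m8, chr7:44624526-44624532, plus strand: cgaactatgtggaggagatGTACTGTgctt
PDHX, 8mer, chr11:34970209-34970216, plus strand: gattaactgaatctaaaaGTACTGTAcctc
PC, 7mer-m8, chr11:66848966-66848972, minus strand: gtgacctcacccatggaggGTACTGTccgc
PDP2, 7mer-m8, chr16:66884292-66884298, plus strand: tatagtttcagaatgtcaaGTACTGTgtcc

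Values are CPM, read counts scaled to TMM-adjusted library size, and fold changes are miR-101 over control from edgeR's quasi-likelihood test with Benjamini-Hochberg adjustment over all 15905 genes. "Adjusted p" without a tool's name means this test, and "called" means that it lay under 0.05. Total counts ran from 17603054 to 20160267 per library. Replicates 1 and 2 lay close together in both groups (root mean square log2 difference 0.256 in miR-101 and 0.280 in control, against 0.356 to 0.620 for other pairs of a group). Control replicate 4 was the highest or the lowest of all 8 libraries for 19 of the 34 genes. Results are therefore also given for replicates 1 and 2 alone, for replicates 3 and 4 alone and without single libraries. EZH2 was 1.63-fold lower in the miR-101 libraries (log2 fold change -0.70, adjusted p = 0.00561). Its call held whichever single library was dropped, but not in replicates 3 and 4 alone (-0.59, adjusted p = 0.565) or with replicates 1 and 2 summed (-0.67, adjusted p = 0.0809). Of 10 mesenchymal and bone markers 8 were in the table, with a summed level of 1503 to 2776 CPM with miR-101 and 1874 to 2158 in control. COL1A2 and THY1 had no row in the count table. Most of the sum came from VIM (mean 581 CPM with miR-101 and 668 in control), SPARC (942 and 564) and CD44 (601 and 678). Every other marker of this list in the table had a mean of 37.4 CPM or below in each group, and COL1A1 stood at 13.5 and 6.29 CPM. RUNX2 was called higher (log2 fold change 0.93, adjusted p = 0.0269). That call ended on dropping miR-101 replicate 1, 3 or 4, or control 1 or 2 (adjusted p up to 0.0812). Summed epithelial (2 of 4 in the table), blood (1 of 4) and endothelial markers (2 of 3) stayed at 16.6 CPM or below in every library. The summed marker levels, unlike the other values, are CPM of total counts without the TMM adjustment. The part of other cells in the results was not tested. In bulk RNA, fewer cells that express a gene and less RNA of it per cell cannot be told apart.

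Of the 34 genes, 2 fell with miR-101, 1 rose and 31 were not called. OGDH, the decarboxylating subunit of the 2-oxoglutarate dehydrogenase complex, fell 1.53-fold. PDHX, the protein that tethers the shared dihydrolipoamide dehydrogenase to the pyruvate dehydrogenase complex, fell 1.37-fold. PDP1, the catalytic subunit of a pyruvate dehydrogenase phosphatase, rose 1.43-fold. The 3 calls are 8.82% of the genes, beside 6.62% called among all genes tested (3.3% higher and 3.32% lower). Before adjustment 8 genes had a p under 0.05, 23.5% beside 22.3% of all genes (7 lower and 1 higher, where all genes gave 10.9% and 11.4%). The groups did not overlap for 7 genes, 20.6% beside 15.1% of all genes (6 lower and 1 higher, where all genes gave 7.34% and 7.76%). The shares of calls and of p-values lie near the background. Of all genes, 6.61% were called with RLE size factors, 6.59% with no filter, 6.66% by limma-voom, 10.5% with the replicate block and 10.9% by DESeq2. Without miR-101 replicate 1, 2, 3 or 4 the share was 3.06%, 3.07%, 4.3% and 5.28%, and without control replicate 1, 2, 3 or 4 it was 3.85%, 3.53%, 8.02% and 8.91%, below the share with all libraries in 6 of these 8 fits. A negative log2 fold change was found for 25 of 34 genes (73.5%, beside 50.7% of all genes), with a median log2 fold change of -0.11 beside -0.01 over all genes. In 4 of 4 same-numbered pairs, 9 genes were lower (OGDH, PDHX, CS, DLST, FH, MDH2, PDHA1, PDHB and ACLY) and 3 were higher (PDP1, IDH1 and SUCLA2). The share of all genes that did so was not computed, so these counts have no background beside them. For the 7 genes without overlap (OGDH, PDHX, CS, DLST, FH, MDH2 and PDP1) any pairing gives 4 of 4, so the pairs add nothing there. Libraries of most replicate numbers correlated more with another number than with their own, so the pairing is uncertain.

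**Figure D1:**
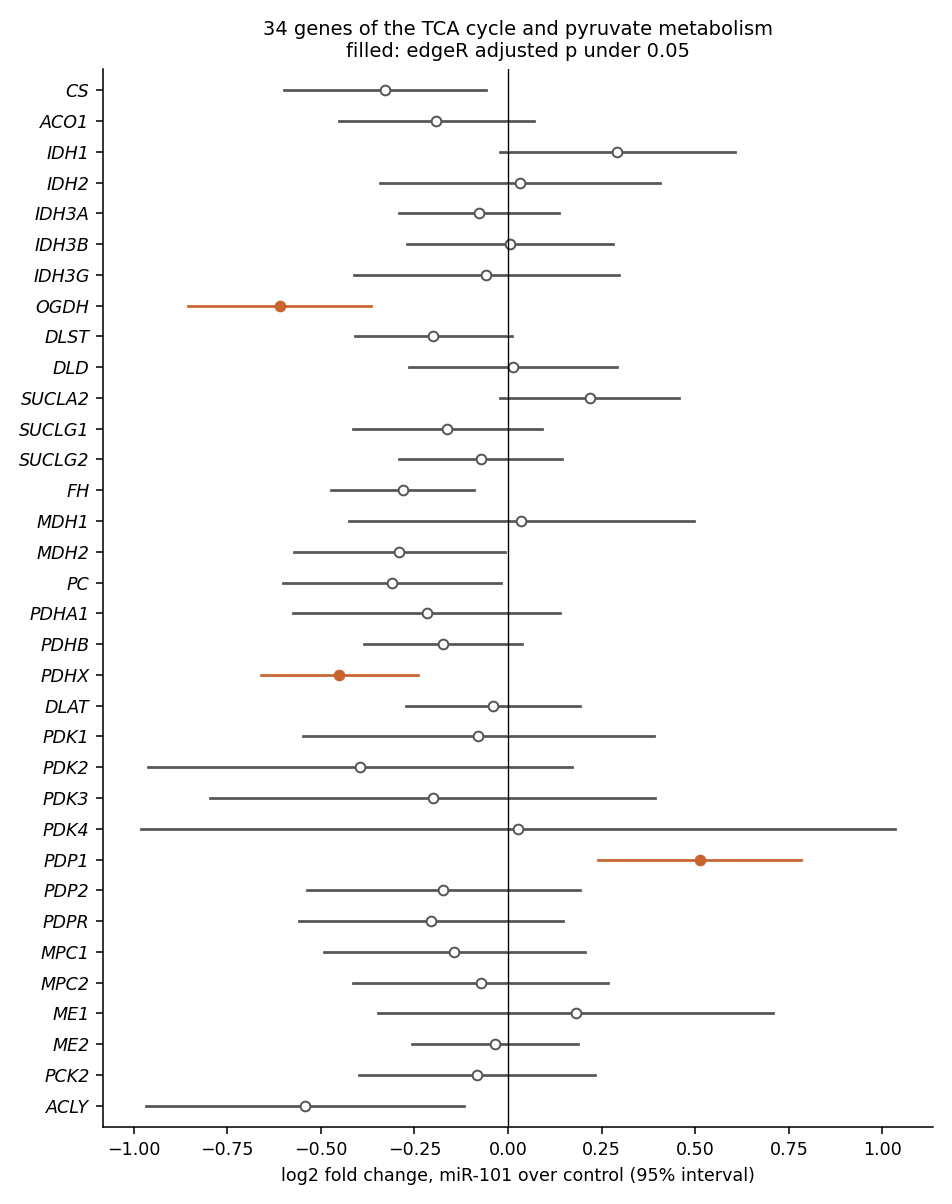
Log2 fold change of each of the 34 genes, miR-101 over control, with its 95% interval from the edgeR fit (n = 4 libraries per group), in the order of the pathway from citrate synthase to ATP citrate lyase; filled points are called. The called genes OGDH and PDHX lie left of 0 and PDP1 right of it, and 25 of 34 points are negative.

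OGDH (chr7:44606572-44709066, plus strand) stood at 54.2, 56.1, 55.2 and 56.3 CPM in miR-101 replicates 1 to 4 and at 100.4, 86.8, 73.2 and 78.3 CPM in the control replicates. The 4 miR-101 libraries lay within a narrow band below every control library, and control replicate 1 was the highest. The means were 55.5 ± 0.967 against 84.7 ± 11.9 CPM (SD, n = 4 each), which edgeR fitted as -0.61 ± 0.111 (log2 fold change and SE, adjusted p = 0.00957). As the groups did not overlap, the gene was lower in 4 of 4 pairs however the libraries are paired. Dropping any 1 of the 8 libraries kept the call (adjusted p up to 0.0428). Replicates 1 and 2 alone gave -0.77 on the log2 scale (edgeR adjusted p = 2.72e-13). That p-value rests on the small spread between these replicates, and the same fit called 32.4% of all genes. Replicates 3 and 4 alone gave -0.44 (adjusted p = 0.671). The call was lost with replicates 1 and 2 summed to 1 sample per group (adjusted p = 0.104).

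OGDH works in a complex with DLST, which carries the succinyl group on lipoic acid, and DLD, which reoxidises the lipoic acid and is shared with the pyruvate dehydrogenase and other complexes. DLST stood at 119.8, 135, 128 and 109.9 CPM with miR-101 and at 148, 138, 139 and 141 CPM in control. Its groups did not overlap, but the difference was smaller and not called (log2 fold change -0.20 ± 0.0952, 95% interval -0.41 to 0.01, adjusted p = 0.249). DLD ranged from 82.0 to 118 CPM with miR-101 and from 84.8 to 97.6 CPM in control, with overlapping groups (log2 fold change 0.01, 95% interval -0.26 to 0.29, adjusted p = 0.969). Within each library, the log2 ratio of OGDH to DLST was -1.15 ± 0.132 with miR-101 and -0.75 ± 0.167 in control, and that of OGDH to DLD was -0.74 ± 0.227 and -0.14 ± 0.291 (SD, n = 4 each). In neither ratio did the groups overlap. These pairs were set side by side after their values were seen and were not tested.

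The genes around the OGDH complex were also measured. DHTKD1, which does for 2-oxoadipate in lysine breakdown what OGDH does for 2-oxoglutarate, stood at 20.5, 24.4, 31.3 and 28.3 CPM with miR-101 and at 47.5, 48.4, 56.7 and 66.2 CPM in control. It fell 2.09-fold (log2 fold change -1.06 ± 0.156, edgeR adjusted p = 0.00354), with every miR-101 library below every control library. Its call held whichever single library was dropped, and with replicates 1 and 2 summed (adjusted p = 0.0375). OGDHL, the paralogue of OGDH, had a mean of 14.8 ± 1.85 against 12.4 ± 1.52 CPM (SD, n = 4 each) with overlapping groups (log2 fold change 0.26, adjusted p = 0.311). None of the 7 genes of lipoic acid synthesis and attachment was called (DESeq2 and limma-voom also called none, and no edgeR p before adjustment was under 0.05), with log2 fold changes from -0.20 (NDUFAB1) to 0.14 (LIAS).

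**Figure D2:**
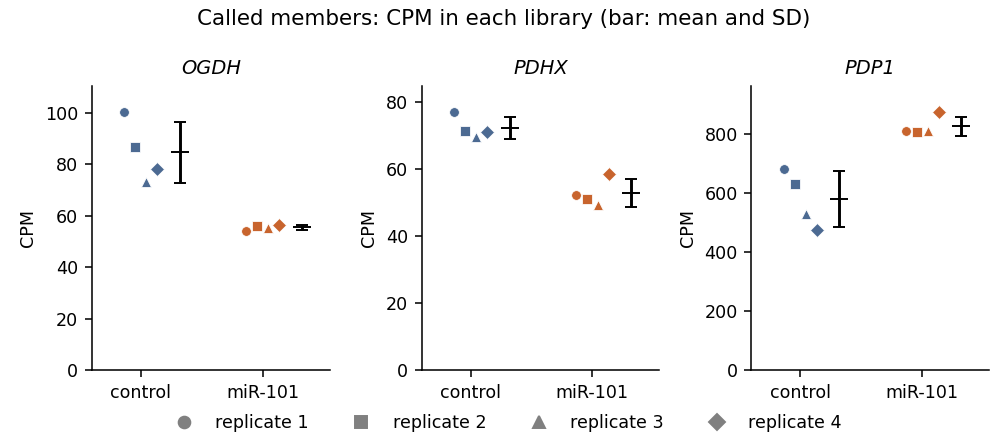
CPM of the 3 called genes in each of the 8 libraries, with marker shapes for the replicate numbers and bars for the mean and SD of each group (n = 4). OGDH lies between 54.2 and 56.3 CPM in the miR-101 libraries and at or above 73.2 CPM in control; PDHX separates in the same direction and PDP1 in the other.

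PDHX (chr11:34915829-35020591, plus strand) stood at 52.4, 51.2, 49.4 and 58.8 CPM with miR-101 and at 77.2, 71.4, 69.6 and 71.3 CPM in control. No miR-101 library reached the lowest control library. The means were 52.9 ± 4.08 against 72.4 ± 3.34 CPM (SD, n = 4 each), or -0.45 ± 0.095 as log2 fold change in edgeR (adjusted p = 0.019). Dropping miR-101 replicate 1, 2 or 3, or control replicate 1 or 2, ended the call (adjusted p up to 0.0767). It was also lost in replicates 3 and 4 alone (log2 fold change -0.38, adjusted p = 0.764) and with replicates 1 and 2 summed (-0.43, adjusted p = 0.178). Whether counting used the strand is not given in the sources used here, and exons of 17 of the 34 genes overlap a gene on the other strand, which was in the table for 11 of them. Among these PDHX overlaps APIP by 259 bases and DLD overlaps LAMB1 (log2 fold change 0.45, adjusted p = 0.0904) by 70 bases, while for PDK2 2113 of 5481 exonic bases are shared with SAMD14. APIP itself had a mean of 30.7 ± 4.59 against 32.5 ± 1.05 CPM (SD, n = 4 each; log2 fold change -0.08, adjusted p = 0.722).

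The other subunits of the pyruvate dehydrogenase complex had smaller differences, all 3 negative and none called, with PDHA1 and PDHB lower in 4 of 4 pairs. PDHA1, the catalytic subunit that the kinases phosphorylate, ranged from 50.4 to 72.6 CPM with miR-101 and from 54.3 to 83.8 CPM in control (log2 fold change -0.22, 95% interval -0.57 to 0.14). PDHB, its partner, ranged from 86.3 to 95.6 and from 90.9 to 109.6 CPM (-0.17, interval -0.38 to 0.04). DLAT, the acetyltransferase core into which PDHX is built, ranged from 142 to 177 and from 157 to 189.6 CPM (-0.04, interval -0.27 to 0.19). The log2 ratio of PDHX to DLAT was -1.63 ± 0.12 with miR-101 and -1.22 ± 0.0661 in control (SD, n = 4 each) and did not overlap between the groups, a pair likewise set side by side after its values were seen and not tested.

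PDP1 (chr8:93857807-93926066, plus strand) stood at 812, 806, 812 and 876 CPM with miR-101 and at 683, 630.2, 529.7 and 476 CPM in control. Each miR-101 library lay above each control library, and the control libraries were the more spread. The means were 827 ± 33.4 against 579.8 ± 94.1 CPM (SD, n = 4 each), or 0.51 ± 0.123 as log2 fold change in edgeR (adjusted p = 0.0325). Dropping any 1 of the 4 miR-101 libraries, or control replicate 2 or 3, ended the call (adjusted p up to 0.0871). The log2 fold change was 0.29 in replicates 1 and 2 alone (adjusted p = 0.000385), where the p-value again rests on their small spread. It was 0.75 in replicates 3 and 4 alone (adjusted p = 0.345), and these 2 estimates are more than 1.5 times apart. With replicates 1 and 2 summed it was 0.59 (adjusted p = 0.123).

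PDP1 was by far the more abundant phosphatase. Per kilobase of exon it stood at 103 ± 16.8 CPM in control, PDP2, the second catalytic subunit, at 5.60 ± 1.24 and PDPR, the regulatory subunit, at 2.45 ± 0.55 (SD, n = 4 each). PDP2 ranged from 34.6 to 45.1 CPM with miR-101 and from 32.6 to 57.3 CPM in control (log2 fold change -0.17, 95% interval -0.54 to 0.19). PDPR ranged from 19.3 to 23.3 and from 19.7 to 31.6 CPM (-0.20, interval -0.56 to 0.15). The log2 ratio of PDP1 to PDP2 was 4.32 ± 0.236 with miR-101 and 3.65 ± 0.296 in control, with no overlap and chosen after its values were seen.

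None of the 4 kinases was called (DESeq2 and limma-voom on all 8 libraries also called none, and no edgeR p before adjustment was under 0.05). PDK1, a kinase known to rise in hypoxia, stood at 78.0, 70.2, 107 and 75.6 CPM with miR-101 and at 91.5, 89.3, 115 and 53.6 CPM in control. Replicate 3 was the highest of each group and control replicate 4 the lowest of all libraries (log2 fold change -0.08, 95% interval -0.55 to 0.39). PDK3 ranged from 12.7 to 22.1 and from 10.8 to 28.7 CPM, with replicate 4 the lowest in each group (-0.20, interval -0.80 to 0.39). In replicates 1 and 2 alone, a fit that called 32.4% of all genes, PDK1 (log2 fold change -0.29) and PDK3 (-0.43) were called lower. These calls rest on the small spread between replicates 1 and 2. In replicates 3 and 4 alone the signs were positive (0.11 and 0.10). PDK2 and PDK4, a kinase known to be induced by fasting, were scarce, with raw counts of 18 to 61 and 11 to 49 per library, and their intervals were wide (-0.96 to 0.17 and -0.98 to 1.03). PDK2 stood at 2.20, 1.90, 2.30 and 0.975 CPM with miR-101 and at 2.31, 2.19, 2.30 and 2.92 CPM in control, with miR-101 replicate 4 the lowest. PDK4 stood at 2.41, 2.45, 2.20 and 0.596 CPM and at 2.64, 2.30, 2.05 and 0.621 CPM, so that replicate 4 was far below the others in both groups. Of the 4 kinase mRNAs per kilobase, PDK1 made up 55.5 ± 6.82% with miR-101 and 53.4 ± 5.31% in control, PDK3 37.1 ± 4.71% and 38.5 ± 5.51%, and PDK2 and PDK4 together the small remainder (SD, n = 4 each). The mix of kinases differed by less than the spread between replicates. The shares divide by the union of all annotated exons (14.9 kb for PDK1 and 4.95 kb for PDK3), which understates PDK1. In CPM not divided by length, PDK1 had a mean of 82.7 with miR-101 and 87.5 in control, and PDK3 18.6 and 21.4.

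Among the remaining enzymes, 5 had an unadjusted p under 0.05 without being called, and all 5 had negative log2 fold changes. FH, which hydrates fumarate to malate, stood at 118, 129, 120.3 and 131 CPM with miR-101 and at 151, 149.6, 157 and 148 CPM in control. The control libraries lay close together and all above the miR-101 libraries (log2 fold change -0.28 ± 0.0868, 95% interval -0.47 to -0.09, edgeR adjusted p = 0.0823). DESeq2 called FH lower (adjusted p = 0.0102). Replicates 1 and 2 alone and 3 and 4 alone gave close log2 fold changes (-0.29 and -0.28), with edgeR adjusted p of 0.00145 and 0.836. The smaller value rests on the small spread between replicates 1 and 2. FH stayed uncalled whichever single library was dropped (adjusted p 0.0618 to 0.223) and with replicates 1 and 2 summed (0.347). The processed pseudogene FHP1, which can share reads with FH, stood at 3.58 ± 0.647 against 3.75 ± 0.234 CPM (SD, n = 4 each).

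ACLY, which cleaves exported citrate into cytosolic acetyl-CoA for lipid synthesis, stood at 399.5, 438, 507 and 333 CPM with miR-101 and at 744, 708, 590.2 and 399.9 CPM in control. The groups overlapped through control replicate 4, whose value lay at the level of miR-101 replicate 1. The log2 fold change was -0.54 ± 0.193 (95% interval -0.97 to -0.12, edgeR adjusted p = 0.126). With the replicate number as a block ACLY was called lower (log2 fold change -0.52, adjusted p = 0.0408), and likewise without control replicate 4 (-0.70, adjusted p = 0.0167). It was -0.80 in replicates 1 and 2 alone (adjusted p = 4.32e-17) and -0.24 in replicates 3 and 4 alone (adjusted p = 0.923). The first of these p-values rests on the small spread between replicates 1 and 2.

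CS, the citrate synthase that opens the cycle, stood at 24.4, 22.8, 23.2 and 23.6 CPM with miR-101 and at 28.7, 25.0, 28.6 and 35.7 CPM in control, without overlap (log2 fold change -0.33 ± 0.122, adjusted p = 0.142). MDH2, the mitochondrial malate dehydrogenase, stood at 61.5, 58.9, 68.2 and 64.7 and at 68.6, 71.4, 71.5 and 98.3 CPM (-0.29 ± 0.128, adjusted p = 0.213). In MDH2 the highest miR-101 library and the lowest control library were almost level. PC, which refills the cycle with oxaloacetate, stood at 24.2, 25.5, 35.8 and 29.6 and at 37.7, 36.1, 34.6 and 34.3 CPM (-0.31 ± 0.132, adjusted p = 0.197). Here miR-101 replicate 3 reached the control range, and the log2 fold change was -0.58 in replicates 1 and 2 alone but -0.07 in replicates 3 and 4 alone.

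**Figure D3:**
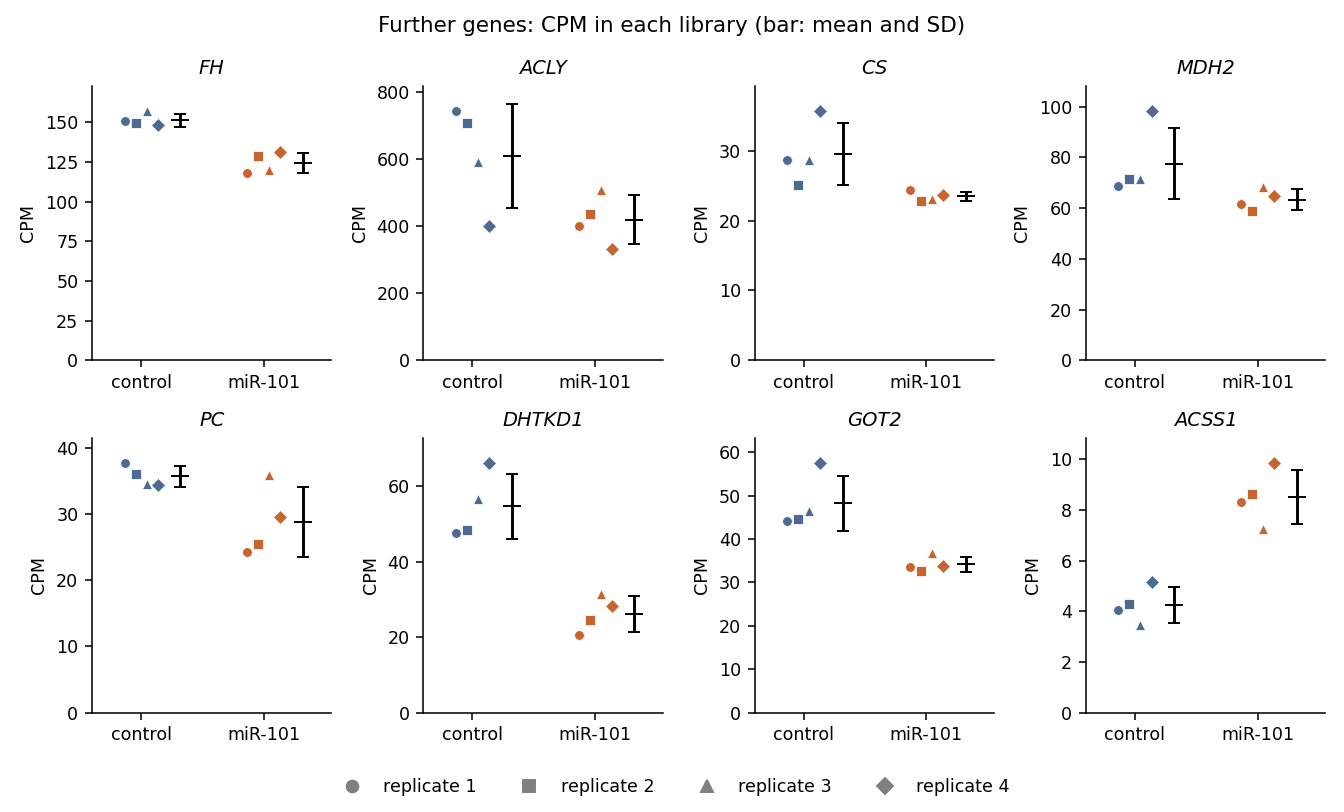
CPM in each library for the 5 uncalled genes with an unadjusted p under 0.05 (FH, ACLY, CS, MDH2, PC) and the 3 called genes of the further pathway lists (DHTKD1, GOT2, ACSS1), with the mean and SD of each group (n = 4). ACLY overlaps between groups through control replicate 4 at 399.9 CPM, and DHTKD1 lies at or below 31.3 CPM with miR-101 against 47.5 CPM or more in control.

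The other 26 genes had log2 fold changes from -0.40 (PDK2) to 0.29 (IDH1), and a miss of the threshold does not show that they were equal. Their 95% intervals reached from -0.98 to 1.03, and from -0.80 to 0.71 without PDK2 and PDK4. Of the isocitrate dehydrogenases, the NADP-linked IDH1 of the cytosol ranged from 167 to 209 CPM with miR-101 and from 119 to 189 CPM in control and was higher in 4 of 4 pairs (log2 fold change 0.29, 95% interval -0.02 to 0.61). The mitochondrial IDH2 had a log2 fold change of 0.03, and the 3 subunits of the NAD-linked enzyme that works in the cycle, IDH3A, IDH3B and IDH3G, had -0.08, 0.005 and -0.06. The cytosolic aconitase ACO1, which also acts as an iron-responsive RNA-binding protein, had -0.19, with 74.3 to 103 CPM and 93.1 to 106 CPM.

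Succinyl-CoA ligase, the step that feeds succinate to complex II, is built from SUCLG1 and either SUCLA2 (ATP-forming) or SUCLG2 (GTP-forming). SUCLA2 stood at 93.7, 92.4, 72.6 and 87.3 CPM with miR-101 and at 75.5, 78.9, 67.3 and 75.8 CPM in control. It was higher in 4 of 4 pairs though the groups overlapped (log2 fold change 0.22, 95% interval -0.02 to 0.46, adjusted p = 0.269), while SUCLG1 and SUCLG2 had -0.16 and -0.07. The pseudogene SUCLG2P2, which can share reads with SUCLG2, stood at 20.6 ± 1.31 against 20.6 ± 1.11 CPM, beside 58.3 ± 2.08 against 61.4 ± 5.92 CPM for SUCLG2 (SD, n = 4 each), so the value of SUCLG2 is uncertain. SUCLA2P3, the corresponding pseudogene of SUCLA2, stood at 0.900 ± 0.316 against 0.681 ± 0.282 CPM (SD, n = 4 each). MDH1, the cytosolic malate dehydrogenase, ranged from 92.4 to 194 CPM within the control group alone, against 135 to 164 CPM with miR-101, so that its fold change (0.04, 95% interval -0.43 to 0.50) says little.

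The pyruvate carrier subunits MPC1 and MPC2 had log2 fold changes of -0.14 and -0.07. Both were lower with miR-101 in pairs 1 to 3 and higher in pair 4 (log2 ratio 0.54 for each), where control replicate 4 was the lowest of the 8 libraries for each. The same library was also the lowest for the malic enzyme ME1, which makes NADPH and pyruvate from malate in the cytosol (16.1 CPM, against 28.2 to 40.4 CPM in the other libraries). ME1 had 0.18 and its mitochondrial relative ME2 -0.03. PCK2, which turns oxaloacetate into phosphoenolpyruvate in mitochondria, had -0.08.

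**Figure D4:**
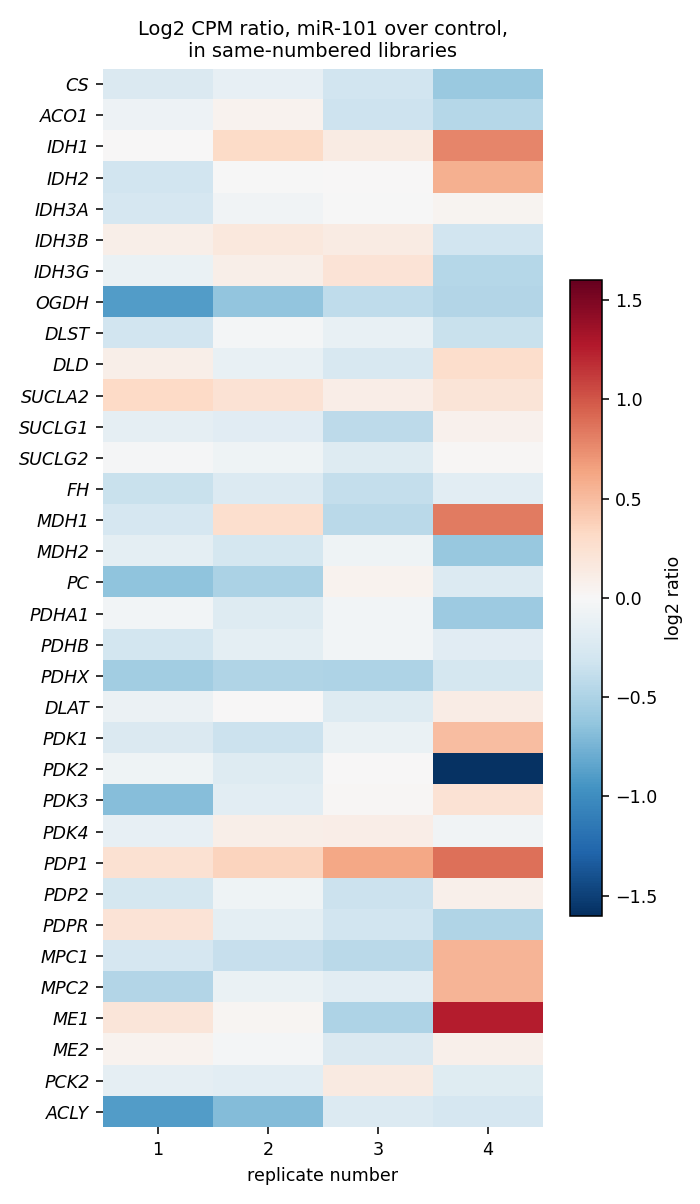
Log2 ratio of CPM, miR-101 over control, for each of the 34 genes in the 4 same-numbered pairs of libraries; blue is lower and red higher with miR-101. OGDH and PDHX are blue and PDP1 red in all 4 pairs, while ME1, MDH1, MPC1 and MPC2 are red in pair 4, where ME1 reaches 1.26.

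The levels themselves spanned a wide range. Per kilobase of exon, ACLY (117 ± 29.7 CPM in control) and PDP1 (103 ± 16.8) led and did not differ beyond their spread, and FH followed at 70.7 ± 1.89 (SD, n = 4 each). IDH3B came next at 41.1 ± 7.45. From IDH3B down to ACO1 (13.1 ± 0.711) each gene overlapped with its neighbour within 1 SD. PDK2 (0.443 ± 0.06) and PDK4 (0.421 ± 0.196) were the lowest and did not differ beyond their spread. In the miR-101 libraries PDP1 (148 ± 5.96) stood above ACLY (80.3 ± 13.96). These levels divide by the union of all annotated exons, which understates genes with long alternative exons such as ME2 and PDK1.

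**Figure D5:**
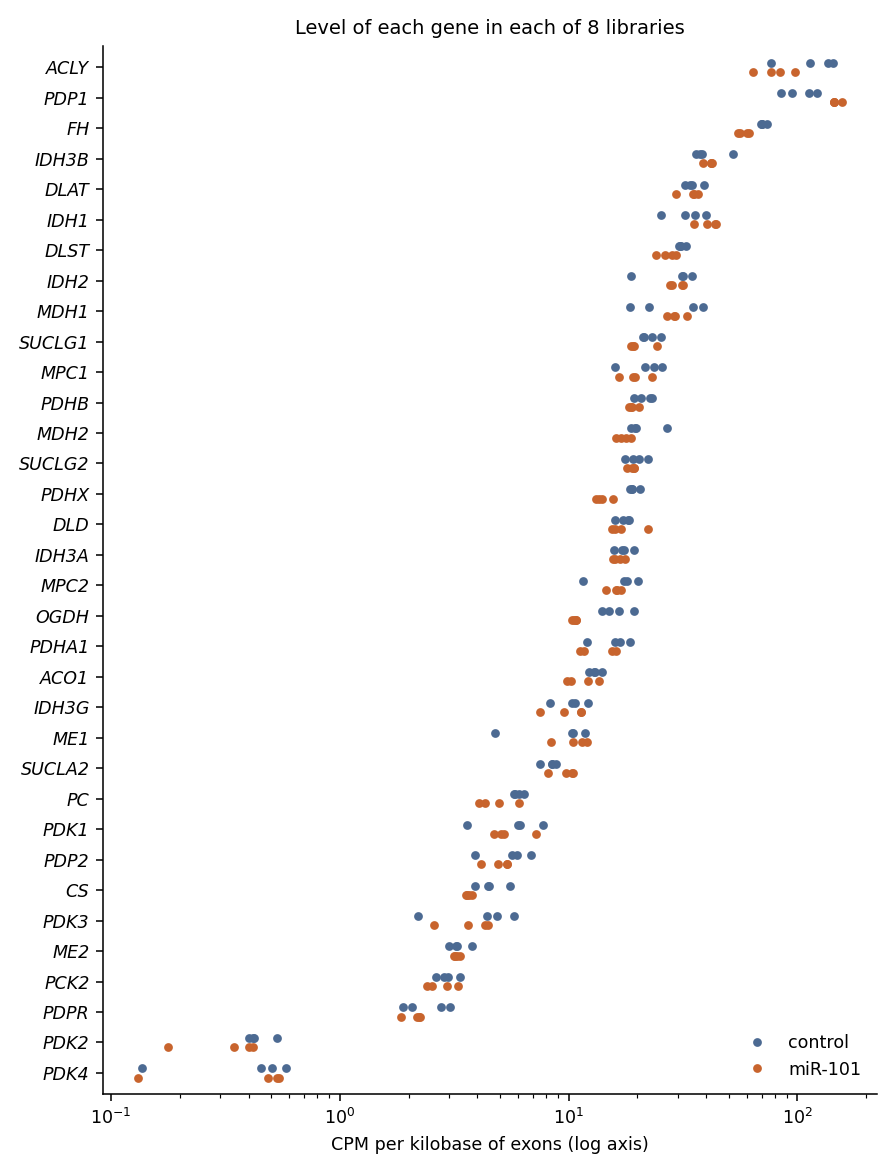
CPM per kilobase of annotated exons (log axis) for each of the 34 genes in each library, ordered by the control mean, with control and miR-101 libraries offset vertically. ACLY, PDP1 and FH lie at the top and PDK2 and PDK4 below 1, and the order of ACLY and PDP1 differs between the groups.

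Seed matches were then set beside these values. An 8mer or 7mer-m8 match lay in the longest 3' UTR of 3 of the 34 genes (8.82%, beside 12.8% of 12447 tested genes with an annotated 3' UTR). These were PDP1 with 3 matches (2 of them 7mer-m8), ACLY and PDK3, and none had an 8mer, beside 4.6% of all genes. With 7mer-A1 matches (MDH2, IDH2, PDK1, PDP2 and PDPR) the count was 8 genes (23.5%, beside 23.8%). Neither OGDH nor PDHX had any match in its longest 3' UTR, and PDP1 had the most. The 8 genes with a match of any class ran from -0.54 to 0.51 with a median log2 fold change of -0.19, and 6 were negative. The 22 genes with no match in the 3' UTR or the coding sequence ran from -0.40 to 0.29 with a median of -0.07, and 15 were negative. Over all genes, the median log2 fold change was -0.26 for 573 genes with an 8mer, -0.10 for 1017 with a 7mer-m8, 0.003 for 1369 with a 7mer-A1 and -0.01 for 9488 with none.

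In the coding sequence, 5 of the 34 genes held a match (14.7%, beside 5.36% of all genes for an 8mer or 7mer-m8 and 8.52% with 7mer-A1 matches included, which added none of the 34). These were OGDH, PDHX, FH, PC and PDP2, and PDHX held an 8mer, which 0.884% of all genes do. Their log2 fold changes ran from -0.61 to -0.17 with a median of -0.31, all 5 negative, with 2 called lower. The 29 genes without a coding match ran from -0.54 to 0.51 with a median of -0.08, and 20 of them were negative. The search of coding sequences was added after the fold changes were seen, it used the transcript with the longest 3' UTR (for PC one with 894 coding bases), and no test was made. Over all genes with no match in the 3' UTR, the median was -0.08 for 70 genes with a coding 8mer, -0.05 for 382 with a coding 7mer-m8 and -0.01 for 8788 with none. The 5 members were not restricted in this way, as PDP2 also had a 7mer-A1 match in its 3' UTR.

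Of 61 further genes on lists around the pathway, 55 were in the table and tested. Among these, 2 fell (DHTKD1 and GOT2) and 1 rose (ACSS1), or 5.45% called, beside 6.62% of all genes. These lists, too, were drawn up with earlier results of these data known. Their median log2 fold change was -0.02, with 29 of 55 negative. Of 8 other cycle enzymes tested, DHTKD1 fell and none rose. SDHB, the iron-sulfur subunit of complex II, had a log2 fold change of -0.35 (adjusted p = 0.0528, and 0.037 with the replicate block), and SDHA, its flavoprotein partner, had -0.19. Among 7 genes of glutamine entry and transamination, GOT2, the mitochondrial aspartate aminotransferase, fell and none rose. It stood at 33.5, 32.7, 36.7 and 33.7 CPM with miR-101 and at 44.2, 44.7, 46.4 and 57.5 CPM in control. The groups did not overlap (log2 fold change -0.50 ± 0.112, adjusted p = 0.0254), but dropping miR-101 replicate 1, 2 or 4, or the second control, ended the call (adjusted p up to 0.0904), as did summing replicates 1 and 2 (0.151).

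GOT2 acts in the malate-aspartate shuttle with SLC25A11, SLC25A12 and SLC25A13, which are among the mitochondrial carriers tested. All 4 carriers had negative log2 fold changes and none was called, with -0.38 for SLC25A10, the dicarboxylate carrier, and -0.33 for SLC25A13 (adjusted p = 0.19 and 0.207). With the replicate block SLC25A13 was called lower (adjusted p = 0.0488). Among 7 genes of acetyl-CoA supply and use, ACSS1 rose and none fell. ACSS1 makes acetyl-CoA from acetate inside mitochondria, unlike most genes of that list, which act in the cytosol. It stood at 8.32, 8.65, 7.25 and 9.86 CPM with miR-101 and at 4.07, 4.28, 3.48 and 5.16 CPM in control. Each miR-101 library lay above each control library (log2 fold change 1.00 ± 0.167, adjusted p = 0.00635), and the call held whichever single library was dropped, but not with replicates 1 and 2 summed (adjusted p = 0.0741).

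In replicates 3 and 4 alone, none of the 34 genes and none of the 55 further genes was called (lowest adjusted p 0.232, DHTKD1), beside 0.0379% of all genes. In replicates 1 and 2 alone 32.4% of all genes were called, and 1.09% with these replicates summed.

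No gene was called among 7 of pyruvate and lactate supply, 6 of the branched-chain keto acid and glycine cleavage complexes or 9 described regulators of the pathway, by edgeR, DESeq2 or limma-voom. The unadjusted edgeR p was under 0.05 for 22.3% of all genes, and for a smaller share of each of these lists, 1 gene each. These were the lactate exporter SLC16A3 (log2 fold change -0.41), the branched-chain phosphatase PPM1K (0.57) and the coactivator PPARGC1A (-0.82), with adjusted p of 0.217, 0.148 and 0.145. PPARGC1A, which drives mitochondrial gene expression, stood at 8.85, 7.65, 4.26 and 5.42 CPM with miR-101 and at 14.6, 13.7, 12.7 and 5.50 CPM in control, where replicate 4 lay within the miR-101 range. Without control replicate 4 PPARGC1A was called lower (log2 fold change -1.06, adjusted p = 0.0175).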

How the data were processed

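Total RNA from 8 cultures was depleted of ribosomal RNA and sequenced, per the labels' protocols. The authors deposited 1 table of raw read counts per gene symbol. The submitters' processing notes name the genome hg38 and the tools StringTie 1.2.4, TopHat2 2.0.14 and bcl2fastq 2.18.0.12. Which tool counted reads, with which annotation and whether by strand, is not given in the sources used here. Every column of counts was mapped to a sample (0 unused).

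The test was edgeR's quasi-likelihood test (edgeR 4.0.16, R 4.3.3; filterByExpr, TMM, glmQLFit, glmQLFTest; group as the only factor; Benjamini-Hochberg over 15905 genes; called at an adjusted p under 0.05), after the steps were tested on simulated data. Intervals are 95%. Alternatives were a replicate block, RLE size factors, no filter, DESeq2 1.42.0, limma-voom (limma 3.58.1), each library left out, replicates 1 and 2 or 3 and 4 alone, and replicates 1 and 2 summed. Deviations of same-numbered libraries from their group means correlated at 0.328, 0.425, 0.185 and 0.209 over genes. For 3 of the 4 numbers a higher correlation was found with another number, so whether the numbers pair the libraries is uncertain. The main test therefore used no pairing, and same-numbered pairs and the replicate block are given beside it as description and as an alternative. The rule for named genes was every member, with full values for called members, those with an unadjusted p under 0.05 or called by an alternative on all 8 libraries, and the 2 most and 2 least abundant per kilobase. Of further genes it took called ones, the 2 with the smallest p of a list described, and SDHB, SDHA and EZH2; other genes and the full values of other members were added after their values were seen. The members and lists were chosen with earlier results of these data known. Seed matches were searched in GENCODE 29 transcripts matched by symbol, using the longest 3' UTR per gene; all 34 members matched. A few further values and 1 sequence are not reported here.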

Additional observations from a re-analysis of the deposited data

Results flagged for a closer look

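In 9 of 74 groups of 4 libraries examined, the highest or lowest library lay apart from the other 3 by more than Dixon's 95% critical value for groups of that size; chance gives about 1 in 20 groups. In control replicate 4, IDH3B stood at 134 CPM (the others 92.9 to 98.4), MDH2 at 98.3 (68.6 to 71.5), PDK2 at 2.92 (2.19 to 2.31) and GOT2 at 57.5 (44.2 to 46.4). In miR-101 replicate 4, SUCLG1 stood at 104 CPM (80.0 to 83.0), PDP1 at 876 (806 to 812) and PDK4 at 0.596 (2.20 to 2.45). In miR-101 replicate 1, IDH3B stood at 99.3 CPM (108 to 109), and in miR-101 replicate 2, PDPR stood at 19.3 (22.6 to 23.3). PDP1 and GOT2 are the called genes among these. Without control replicate 4 GOT2 stayed called (adjusted p = 0.0206), and without miR-101 replicate 4 PDP1 did not (0.0743).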

How the results depend on the processing

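With the replicate number as a block, called members were 3 lower (ACLY added) and 1 higher, and further pathway genes 4 lower (SDHB and SLC25A13 added) and 1 higher, against 2, 1, 2 and 1 without it; all genes called went from 1053 to 1676. The block changed no other call among the 34 members and the further pathway genes. DESeq2 called 3 members lower (FH added), 3 further genes lower (SDHB added) and 1714 of all genes. Leaving out each library in turn gave 1 to 3 members lower, 0 to 1 higher, 1 to 5 further genes lower and 1 to 1 higher. ACLY was added without control replicate 4, and OGDH was the called member without miR-101 replicate 1, 2 or 3 or the second control. SDHB, SLC16A3 and SLC25A11 were added to the further genes without control replicate 3, and SDHB and PPARGC1A without control replicate 4. Replicates 1 and 2 alone gave 11 members lower and 2 higher, 12 further genes lower and 6 higher, and 5126 of all genes. Replicates 3 and 4 alone gave 0 of each and 6 of all genes, and replicates 1 and 2 summed gave 0 members, 1 further gene lower (DHTKD1), 0 higher and 173 of all genes; both have fewer samples. The members' median log2 fold change stayed between -0.16 and -0.09. Members with a 3' UTR match numbered 3 for 8mer or 7mer-m8, 0 for 8mer alone, 8 with 7mer-A1 and 5 in the coding sequence instead. Signs turned, without a call, in replicates 1 and 2 alone for IDH2 (-0.16), DLD (-0.0197), MDH1 (-0.0433), PDK4 (-0.0246), PDPR (0.0300) and ME2 (0.0113), in replicates 3 and 4 alone for IDH3A (0.0179), IDH3B (-0.11), PDK1 (0.11), PDK3 (0.10), MPC1 (0.0233) and MPC2 (0.16), with replicates 1 and 2 summed for IDH3B (-0.0343) and MPC2 (0.000181), and with limma-voom for DLD (-0.000193). Leaving out 1 library moved IDH2 from -0.13 to 0.13, IDH3B from -0.0519 to 0.14, IDH3G from -0.16 to 0.0470, DLD from -0.12 to 0.0676, MDH1 from -0.13 to 0.21, DLAT from -0.0782 to 0.0181, PDK1 from -0.26 to 0.0773, PDK4 from -0.28 to 0.31, MPC2 from -0.22 to 0.0264, ME1 from -0.0393 to 0.31 and ME2 from -0.0814 to 0.0325. The cause was not tested. PDK2 and PDK4 are limited by low counts.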
